A study of Mus musculus with 9 samples.

Results

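The hippocampus of 10-month-old mice was compared with that of 8-week-old mice, both without quercetin. The comparison used 6 of the 9 RNA-seq libraries of the series, with 3 libraries in each age group (8-week libraries 1 to 3 and 10-month libraries 1 to 3). All mice were C57BL/6, and the study's methods describe them as female. Both groups had received the vehicle alone, PBS with 10% DMSO, which the methods give by tail vein every other day. The hippocampus was taken as bulk tissue, so every value is an average over all of its cells. Nothing in the sources used here says that the 3 libraries of a group came from separate mice, and the p-values measure only the spread between these samples. The level of a gene is its FPKM, its fragments scaled to transcript length and to the size of the library. Of 22173 genes listed, 18798 had a value, and limma was run on log2(FPKM + 1) of the 12906 that reached 1 FPKM in 3 or more of these 6 libraries. A gene was called when its two-sided Benjamini-Hochberg adjusted p over all genes tested was under 0.05. The third-highest value of a gene decided whether it passed this filter, and it lay within 0.05 FPKM of the minimum in 86 genes inside and in 86 genes outside.

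The hippocampus is the brain region that forms new memories of places and events, and it is rich in receptors for glucocorticoids, the stress hormones of the adrenal gland. A glucocorticoid enters the cell, binds its receptor and raises the transcription of a known set of target genes. Chaperones are proteins that fold other proteins, those of the cytosol being switched on by heat shock factor and those of the endoplasmic reticulum (ER) by the unfolded protein response. Astrocytes and microglia, the supporting and immune cells of the brain, are known to raise some of their marker genes as the brain ages.

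Between 12801 and 12910 genes per library reached 1 FPKM, and summed FPKM lay between 325192 and 338861. The read depth is unknown, so no counting interval is given. Markers of dentate granule neurons summed to 95.6 to 97.0 FPKM at 8 weeks and to 102 to 109 FPKM at 10 months, and those of CA1 neurons to 219 to 230 and 206 to 234 FPKM. Hippocampal markers were thus present in all 6 libraries. The Y-linked genes Ddx3y and Kdm5d stayed at or under 0.04 FPKM in every library. The list for checking sex had 4 genes with a value, which summed to 2.46 to 3.26 FPKM. Of these, 1 was tested and was not called (log2 fold change 0.09). The 9 genes listed for NK and T cells summed to 0.50 to 0.66 FPKM, and none of them was tested. One library stood apart. In 8-week library 3 the 18 choroid plexus markers summed to 2880 FPKM, against 54.1 to 91.6 FPKM in the others, and Ttr, the choroid plexus carrier of thyroid hormone, was at 2390 FPKM against 1.08 to 28.3 FPKM. None of the choroid plexus markers was at 0 in all libraries. In 8-week library 1 the red cell genes summed to 14.4 FPKM, against 79.3 to 108 FPKM in the others.

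The ages differed in 22 of the 12906 genes. At 10 months, 12 genes were called higher, which is 0.0930% of those tested, and 10 were called lower, which is 0.0775%. Without adjustment, p was under 0.05 for 726 genes in the higher direction (5.63%) and for 851 in the lower (6.59%). The median log2 fold change (10 months minus 8 weeks) of all genes was -0.00, and the 5th and 95th percentiles were -0.20 and 0.17. Only 6 genes were higher by a log2 fold change of 1 or more, of which 5 were called, and 4 were lower by as much, of which only Dynlt1b was called. The other 3, Ttr, Ecrg4 and Xlr3b, missed the threshold, and Ttr and Ecrg4, both choroid plexus markers, were by far the highest in 8-week library 3, without which the log2 fold change of Ttr was 0.95. In all 22 called genes the 3 libraries of one age lay entirely above the 3 of the other. Such a split was common among all genes tested, 8.88% of which had all 10-month libraries higher and 9.41% all lower. Of the 12 genes called higher, 3 (Ccl28, Rpl34-ps1 and Gm40364) passed the filter on low values only through the 10-month libraries. The number of calls depended on the processing, since 5 of the 22 genes were still called with no filter on low values, 6 without the mean-variance trend and 3 with the replicate number as a block.

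**Figure D1:**
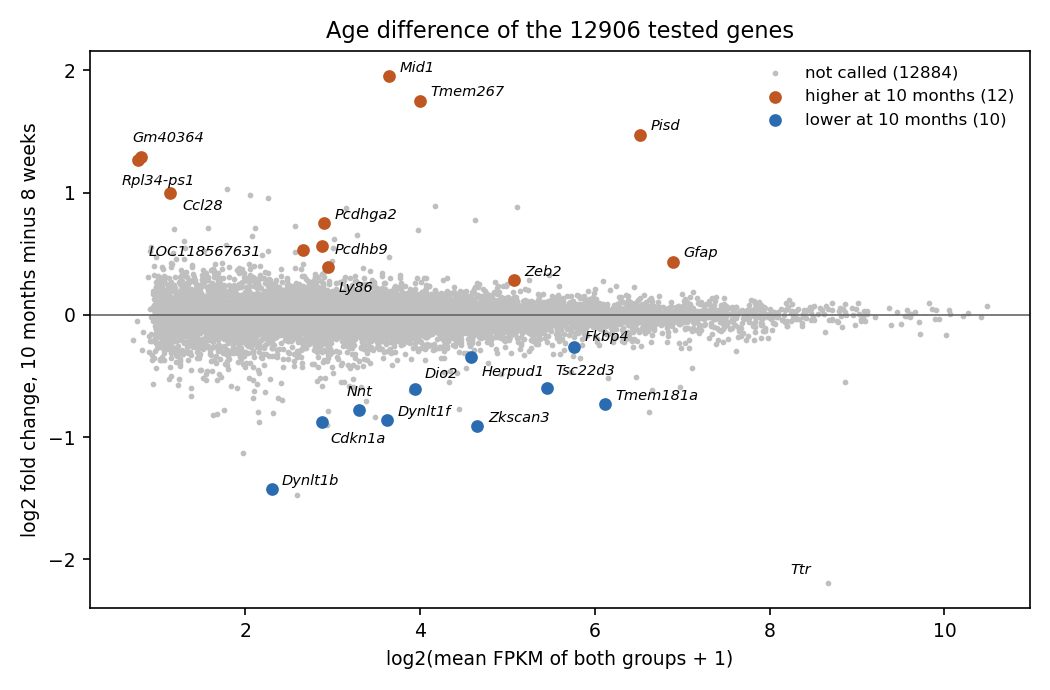
Log2 fold change (10 months minus 8 weeks, vertical axis) of each of the 12906 tested genes against log2 of its mean FPKM over both groups plus 1 (horizontal axis). The 12 genes called higher and the 10 called lower are coloured and named, and the uncalled gene Ttr lies at -2.19.

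**Figure D2:**
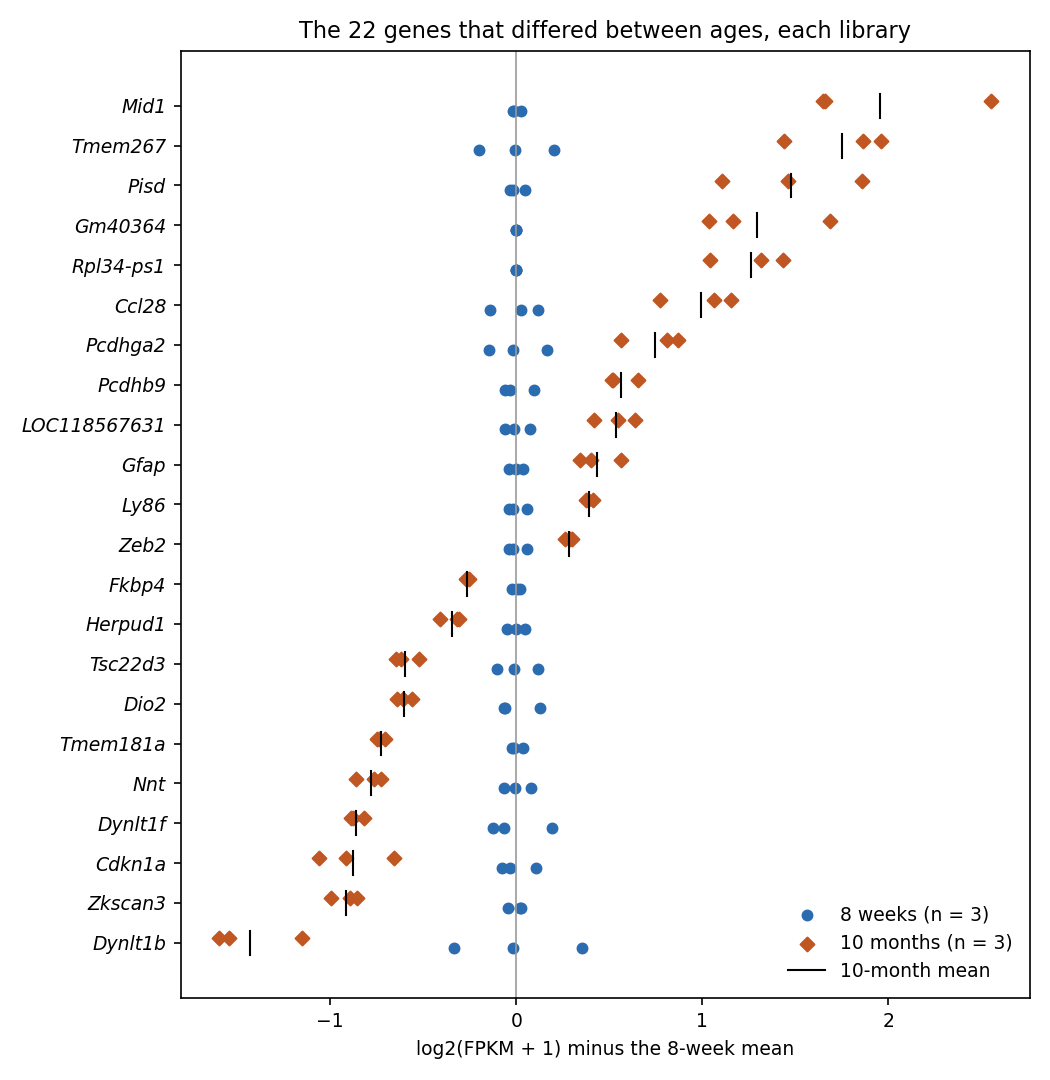
Level of the 22 called genes in each library, as log2(FPKM + 1) minus the mean of the 3 libraries of 8-week mice, with circles for 8 weeks, diamonds for 10 months and a bar at the 10-month mean. The circles and the diamonds of a gene do not overlap in any row, and Mid1 and Pisd are spread widely among the 10-month libraries.

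The 3 most stable differences were falls in Tmem181a, Zkscan3 and Nnt, each of which was called in all 14 alternative analyses. Tmem181a, a membrane protein gene, was at 85.1, 88.0 and 84.3 FPKM at 8 weeks and at 51.2, 50.7 and 52.3 FPKM at 10 months. Each age kept within a narrow band, with a coefficient of variation of 2.29% at 8 weeks and 1.62% at 10 months. The mean was 40.1% lower at 10 months (log2 fold change -0.73, SE 0.03, limma adjusted p = 1.84e-04). Zkscan3, a zinc finger repressor of autophagy genes in human cells, was at 32.4, 31.0 and 32.6 FPKM in young mice and at 16.8, 17.2 and 15.6 FPKM in 10-month mice. Its mean fell by 48.3% (log2 fold change -0.91, SE 0.05, limma adjusted p = 1.95e-04). It lies on chromosome 13 (21387004 to 21402755), and Tmem181a on chromosome 17 (6256726 to 6308314). Nnt, the mitochondrial transhydrogenase that supplies NADPH, was at 10.9, 11.4 and 12.2 FPKM at 8 weeks and at 5.89, 6.55 and 6.37 FPKM at 10 months. Its mean was 45.5% lower (log2 fold change -0.78, SE 0.06, limma adjusted p = 0.00318). In the 10-month mice given quercetin, which did not enter the fit and are compared here with no test, Tmem181a was at 50.5, 52.3 and 50.7 FPKM and Nnt at 5.88, 6.31 and 6.35 FPKM. The called genes were divided in these mice. Dio2 was at 16.8, 17.8 and 19.9 FPKM and Zeb2 at 28.8, 29.6 and 30.8 FPKM, both near their 8-week values. Fkbp4 (54.6, 60.6 and 58.3 FPKM) and Tsc22d3 (45.1, 48.8 and 49.7 FPKM) also lay nearer to their 8-week values. Cdkn1a, Pisd and Mid1 lay between the ages in every library. Dynlt1f, Pcdhb9 and Ly86 stayed near their 10-month vehicle values.

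Several of the called genes were neighbours on a chromosome. Of the 21 called genes with a position, 8 had another called gene within 500 kb. They include copies from tandem families, Dynlt1b and Dynlt1f as well as Pcdhb9 and Pcdhga2. The share for other sets of genes was not computed, so this count only describes the called genes. On chromosome 13, Nnt (119335527 to 119409257, RefSeq on GRCm38.p6) lay 78.8 kb from Tmem267 and 215 kb from Ccl28, and these moved in opposite directions. Tmem267, a membrane protein gene whose role is not described here, was at 7.33, 5.31 and 6.22 FPKM at 8 weeks and at 18.6, 27.2 and 25.3 FPKM at 10 months. It rose 3.77-fold (log2 fold change 1.75, SE 0.14, limma adjusted p = 0.00357), and the lowest 10-month library was well above the highest 8-week one. Ccl28, a chemokine of mucosal surfaces, was barely present, at 0.59, 0.49 and 0.33 FPKM at 8 weeks and at 1.5, 2.26 and 2.06 FPKM at 10 months (log2 fold change 0.99, SE 0.13, limma adjusted p = 0.0304). Ccl28 passed the filter on low values only through the 10-month libraries, where it is high. Paip1, between Nnt and Tmem267, was at 15.7, 16.5 and 15.3 FPKM in young mice and at 15.8, 15.9 and 15.7 FPKM at 10 months (log2 fold change -0.00). The other tested neighbours of Nnt, 4833420G17Rik, Hmgcs1, Nim1k and Zfp131, had log2 fold changes of 0.22, 0.15, 0.22 and -0.03 and were not called. Tmem267 was called in 13 of 14 alternatives and Ccl28 in 5 of 13, its call ending without any single library except 10-month library 1.

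Nnt also stands in a list of genes known to differ between C57BL/6 substrains, since C57BL/6J carries a deletion in it. The sources used here do not give the substrain of either age group, so age and substrain cannot be told apart. Of the 8 genes in that list, 6 were tested, and Nnt alone was called, against 0.0775% of all genes tested called lower. Wdfy1 was at 8.02, 9.01 and 7.99 FPKM at 8 weeks and at 7.85, 7.40 and 7.82 FPKM at 10 months. Cyfip2, a regulator of the actin cytoskeleton, had a log2 fold change of 0.03. Fgfbp3 and Ide, which lie in the list for a copy number difference among mice, had log2 fold changes of 0.35 and 0.33 with overlapping groups (limma adjusted p = 0.299 and 0.315).

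On chromosome 17, Tmem181a lay among the tandem copies of Dynlt1, a light chain of the motor protein dynein. Dynlt1f, 338 kb away, was at 14.2, 17.2 and 13.6 FPKM at 8 weeks and at 8.01, 7.59 and 7.67 FPKM at 10 months. It fell by 48.2% (log2 fold change -0.86, SE 0.08, limma adjusted p = 0.00848). Dynlt1b, 121 kb away, was at 4.6, 8.05 and 5.98 FPKM in young mice and at 1.43, 1.34 and 2.19 FPKM at 10 months (log2 fold change -1.43, SE 0.18, limma adjusted p = 0.0304). It had the largest fall of all called genes, 73.4%, and its call ended without 8-week library 2 or 3 or 10-month library 1 or 2. Dynlt1a, which overlaps Tmem181a, was at 5.50, 5.63 and 6.27 FPKM and then 4.97, 4.47 and 4.25 FPKM, and was not called. Dynlt1c had a log2 fold change of 0.38 with overlapping groups. The copies are nearly alike in sequence, and 82.0% of the 100-base windows of Dynlt1b transcripts and 85.1% of those of Dynlt1f also occur in other genes. For Tmem181a the share was 31.9%, mostly through Tmem181b-ps. The sources used here do not say how reads were divided among these copies, so the values of single Dynlt1 copies are uncertain.

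**Figure D3:**
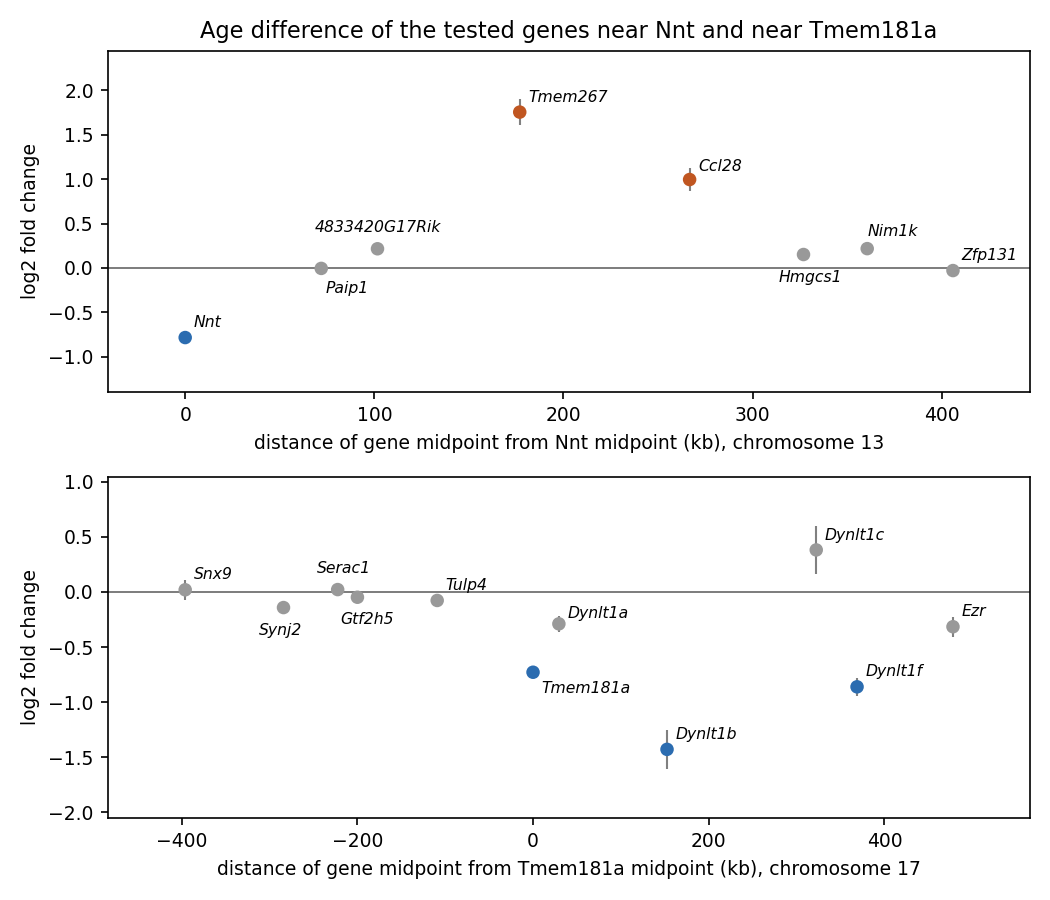
Log2 fold change (10 months minus 8 weeks) of the tested genes within 500 kb of Nnt on chromosome 13 (top) and of Tmem181a on chromosome 17 (bottom), against the distance between gene midpoints in kb. Bars are 1 standard error, orange marks genes called higher and blue genes called lower. Paip1, next to Nnt, lies at -0.00 while Tmem267 lies at 1.75.

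Mid1 and Pisd rose by large factors but unevenly. Mid1, an E3 ubiquitin ligase on microtubules, was at 3.90, 4.04 and 3.89 FPKM in the 8-week libraries and at 14.5, 14.6 and 28.0 FPKM in the 10-month ones. The 3 young libraries were almost equal, while 10-month library 3 was far above the rest (log2 fold change 1.95, SE 0.21, limma adjusted p = 0.0137). Pisd, which makes phosphatidylethanolamine in mitochondria, was at 46.2, 48.2 and 45.6 FPKM at 8 weeks and at 101.4, 130.3 and 172 FPKM at 10 months (log2 fold change 1.48, SE 0.15, limma adjusted p = 0.0119). Its coefficient of variation was 2.99% at 8 weeks and 26.4% at 10 months. The call of Mid1 ended without any one of the 8-week libraries and that of Pisd without 8-week library 1 or 2. Both genes share sequence with copies elsewhere, Mid1 in 20.2% of its 100-base windows and Pisd in 32.7%, all of the latter with Gm20671, so their values are uncertain. Rpl34-ps1, a ribosomal protein pseudogene with 98.4% of its windows in other genes, was listed at 0 in all 8-week libraries and at 1.70, 1.06 and 1.49 FPKM at 10 months. Gm40364, a predicted gene, was likewise listed at 0 at 8 weeks and at 1.24, 1.05 and 2.22 FPKM at 10 months. Both genes passed the filter on low values only through the 10-month libraries. In the 10-month mice given quercetin, compared with no test, Rpl34-ps1 was at 0 in every library. Gm40364 was at 3.41, 0 and 2.05 FPKM in those mice. The calls were lost without 8-week library 2 for Rpl34-ps1, and without any 8-week library or 10-month library 1 for Gm40364. Leaving out an 8-week library did not change the 8-week mean of either gene, which was 0. Such a loss therefore does not show that the call rested on the gene's value in that library.

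Genes induced by glucocorticoids were lower at 10 months. Of the 20 in the list, 19 had a lower mean at 10 months, 16 of them with all 10-month libraries under all 8-week libraries, against 9.41% of all genes tested. The median log2 fold change of the list was -0.28, beside -0.00 for all genes, and 2 members, Tsc22d3 and Cdkn1a, fell by the test. Of all genes tested, 0.0775% were called lower. This and the other gene lists were drawn up with earlier results of these data known. The shares given for them therefore describe the lists and are no test of them. Tsc22d3, the glucocorticoid-induced leucine zipper that mediates the hormone's anti-inflammatory action, was at 56.2, 51.2 and 48.0 FPKM at 8 weeks and at 33.3, 32.6 and 35.6 FPKM at 10 months. It fell by 34.6% (log2 fold change -0.60, SE 0.06, limma adjusted p = 0.0107). Cdkn1a, the cell cycle inhibitor p21, was at 8.02, 8.31 and 9.26 FPKM in young mice and at 3.57, 5.03 and 4.04 FPKM at 10 months, a fall of 50.6% (log2 fold change -0.88, SE 0.10, limma adjusted p = 0.0232). The call of Tsc22d3 ended without 8-week library 2 or 10-month library 1, and that of Cdkn1a without any one library except 10-month library 2.

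The other members of the list were under the threshold of the test. Zbtb16, a transcription factor and classic target of the receptor, was at 21.5, 23.9 and 23.3 FPKM at 8 weeks and at 15.0, 13.7 and 17.5 FPKM at 10 months (log2 fold change -0.55, limma adjusted p = 0.0599). Fkbp5, the co-chaperone that feeds back on the receptor, was at 20.3, 21.2 and 20.4 FPKM and then 16.6, 17.2 and 17.5 FPKM (log2 fold change -0.26, limma adjusted p = 0.0845). In both genes the 2 groups were apart without overlap. Arrdc2, Plin4, Hif3a and Sult1a1 had log2 fold changes of -0.52, -0.67, -0.57 and -0.58, with limma adjusted p from 0.0896 to 0.205. Dusp1, the phosphatase that switches off MAP kinases, had the only higher mean, with 16.0, 14.2 and 11.6 FPKM at 8 weeks, 19.3, 16.7 and 15.8 FPKM at 10 months, and overlap between them. The metallothioneins Mt1 and Mt2 and the kinase Sgk1 had log2 fold changes of -0.23, -0.25 and -0.25. The median of the list lay between -0.31 and -0.27 when single libraries were left out, and 19 of 20 members had a lower mean in each of these removals.

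A site like the binding site of the receptor (GNACA, then any 3 bases, then TGTNC, on either strand) was present in the promoters of 3 of the 19 list members with a promoter sequence. The promoter here is the stretch from 250 bases before to 50 bases after the gene start (RefSeq, GRCm38.p6). Of the tested genes with a promoter sequence, 0.418% hold the site. The list is of genes known to be induced by the hormone, so this is a description of the list. These 3 promoters are shown because they are the members where the letters of a receptor site stand close to the start. The site is in capitals with 20 bases on each side, from chr10:21993682-21993734 for Sgk1, chr8:94178975-94179027 for Mt1 and chr4:133240617-133240669 for Map3k6, all on the plus strand.
Sgk1: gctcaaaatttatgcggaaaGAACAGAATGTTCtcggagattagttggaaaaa
Mt1: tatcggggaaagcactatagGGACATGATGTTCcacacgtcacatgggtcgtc
Map3k6: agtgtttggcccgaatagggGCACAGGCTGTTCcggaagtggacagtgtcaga
The site begins 188, 94 and 181 bases before an annotated start of Sgk1, Mt1 and Map3k6. Sgk1 was at 64.5, 65.2 and 56.0 FPKM at 8 weeks and at 53.2, 49.3 and 52.9 FPKM at 10 months. Map3k6 was at 1.55, 1.43 and 1.46 FPKM and then 0.96, 0.99 and 1.11 FPKM. Neither was called. Neither Tsc22d3 nor Cdkn1a had such letters in this window.

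Chaperones of the ER were also lower at 10 months as a group. Of 28 tested members of the list of ER chaperones and unfolded protein response targets, 25 had a lower mean (24 to 27 without single libraries), and in 18 of these the groups did not overlap, against 9.41% of all genes. The median log2 fold change was -0.23, and 1 member, Herpud1, fell by the test. The share called lower of all genes tested was 0.0775%, and this list too was drawn up with earlier results known. Herpud1, which helps to clear misfolded proteins from the ER, was at 25.8, 24.9 and 26.6 FPKM at 8 weeks and at 20.5, 20.6 and 19.2 FPKM at 10 months (log2 fold change -0.35, SE 0.05, limma adjusted p = 0.0349). This fall of 22.1% was no longer called when any one library was left out. Hspa5, the main ER chaperone BiP, was at 150, 139 and 161 FPKM in young mice and at 90.6, 114 and 94.3 FPKM at 10 months (log2 fold change -0.59, SE 0.09, limma adjusted p = 0.0599). All 10-month libraries were under all 8-week libraries, with 10-month library 2 the nearest to them. Creld2, Sdf2l1, Manf and Pdia4, which are secreted or luminal ER proteins, had log2 fold changes of -0.59, -0.55, -0.47 and -0.47 and were not called. Members at the other end were Dnajc10, Edem1 and Txndc5, with log2 fold changes of 0.13, 0.05 and 0.02. Without 10-month library 2, 5 members were called lower in place of 1, and without any other single library none was. The median of the list lay between -0.28 and -0.18 over these removals.

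**Figure D4:**
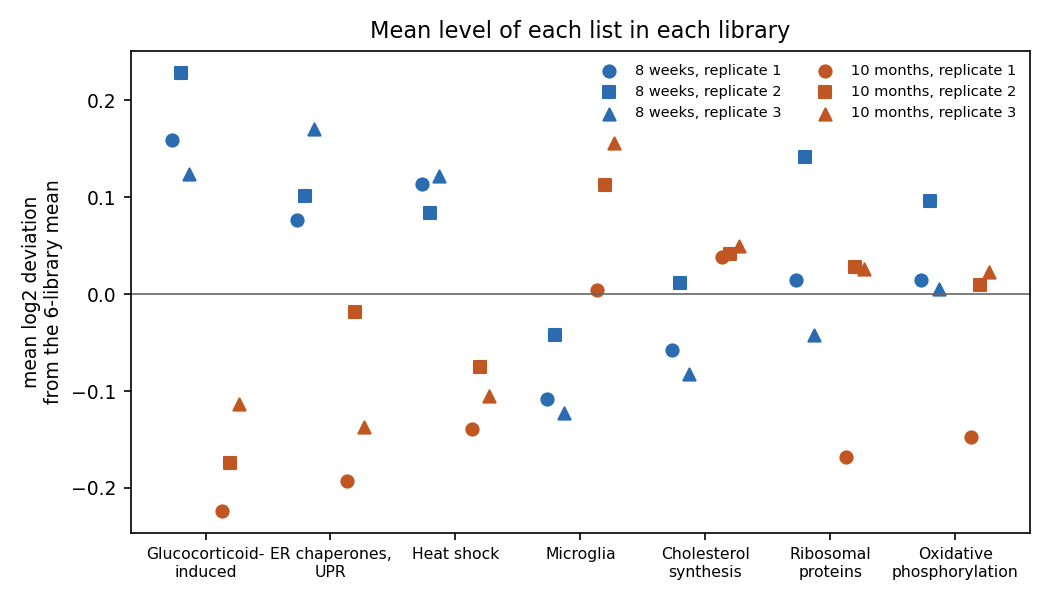
Mean of log2(FPKM + 1) over the tested members of 7 gene lists, as the deviation from the mean of the 6 libraries, with blue for 8 weeks and orange for 10 months and a shape for each replicate. The glucocorticoid-induced list lies at 0.12 to 0.23 in the 8-week libraries and at -0.22 to -0.11 in the 10-month libraries, while ribosomal proteins were lowest in 10-month library 1 and overlapped between the ages.

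The ER stress element (CCAAT, then any 9 bases, then CCACG, on either strand) stood in the promoters of 9 of the 26 ER list members with a promoter sequence, which is 34.6%. Among all promoters of the same length the share was 0.119%, and it was 0.156% of the tested genes. Many of these genes are textbook targets of the factors that bind this element, and the list was drawn up from such knowledge, so this is a description of the list. The following sites come from members with some of the lower values in the list and are shown to let the element be compared between them, with the element in capitals and 20 bases on each side. They are at chr2:34772005-34772063 (plus strand) for Hspa5, chr15:88819500-88819558 (plus strand) for Creld2, chr12:17266471-17266529 (plus strand) for Pdia6, chr8:84847055-84847113 (minus strand) for Calr and chr10:86705618-86705676 (minus strand) for Hsp90b1.
Hspa5: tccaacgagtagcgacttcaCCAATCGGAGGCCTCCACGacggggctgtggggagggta
Creld2: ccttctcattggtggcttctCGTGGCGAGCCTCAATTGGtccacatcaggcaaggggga
Pdia6: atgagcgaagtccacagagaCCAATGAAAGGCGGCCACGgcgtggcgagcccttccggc
Calr: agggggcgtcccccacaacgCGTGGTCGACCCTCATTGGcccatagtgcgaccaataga
Hsp90b1: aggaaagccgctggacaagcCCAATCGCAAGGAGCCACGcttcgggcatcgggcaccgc
In Creld2 and Calr the element reads in the reverse direction. It begins 65 bases before the start of Hspa5 and 212 bases before that of Hsp90b1. Hsp90b1 holds 2 such elements, and the farther one is shown. The other members with the element were Canx, Dnajc3, Ero1b and Syvn1. Canx, an ER lectin chaperone, was at 92.1, 92.0 and 101.3 FPKM at 8 weeks and at 88.1, 92.4 and 93.8 FPKM at 10 months, so that the element was also present where the ages overlapped. Calr, its soluble relative, was at 200.4, 210 and 237 FPKM and then 158, 187 and 180.4 FPKM, without overlap.

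Heat shock proteins and their co-chaperones, a list that also holds the mitochondrial Hspd1 and Hspe1, had lower means at 10 months in all 28 tested members, in 27 with upper-quartile scaling and in 26 to 28 when single libraries were left out. In 23 of the 28 the groups did not overlap, again against 9.41% of all genes. The differences were small, with a median log2 fold change of -0.16, and 1 member, Fkbp4, fell by the test. Among all genes tested 0.0775% were called lower, and earlier results were known when this list was drawn up. Fkbp4, the immunophilin FKBP52 that works with Hsp90 on steroid receptors, was at 59.0, 58.3 and 57.1 FPKM at 8 weeks and at 48.2, 48.0 and 48.6 FPKM at 10 months. This was a fall of 17% (log2 fold change -0.26, SE 0.03, limma adjusted p = 0.0304), and it was no longer called without any one library. Hspb1, a small heat shock protein, was at 9.93, 8.40 and 8.56 FPKM in young mice and at 3.35, 5.55 and 4.28 FPKM at 10 months (log2 fold change -0.90, SE 0.14, limma adjusted p = 0.0599). The inducible Hsp70 genes Hspa1a and Hspa1b, which are near copies of each other and so uncertain singly, had log2 fold changes of -0.40 and -0.71. Dnajb1, the co-chaperone of Hsp70, was at 26.2, 23.9 and 23.9 FPKM and then 20.5, 19.3 and 19.4 FPKM (log2 fold change -0.31, limma adjusted p = 0.0747). The abundant constitutive chaperones differed by less. Hspa8 was at 865, 872 and 933 FPKM at 8 weeks and at 771, 799 and 826 FPKM at 10 months, and Hsp90ab1 had a log2 fold change of -0.08. The transcription factors Hsf1 and Hsf2 had log2 fold changes of -0.10 and -0.01.

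The heat shock element (GAA, TTC and GAA with any 2 bases between each, or TTC, GAA and TTC in the same spacing, on either strand) stood in the promoters of 4 of the 22 heat shock list members with a promoter sequence (Chordc1, Hspd1, Hspe1 and Hsph1). It stood in the promoters of 0.545% of the tested genes with a promoter sequence. As with the ER list, this is a description of the list. Hspd1 and Hspe1, the mitochondrial chaperonin and its cap, are transcribed away from each other from 1 shared stretch, and the element between them is shown for that reason, in capitals, at chr1:55088039-55088096 on the strand of Hspe1.
Hspe1: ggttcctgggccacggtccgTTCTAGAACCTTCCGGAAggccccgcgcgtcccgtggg
Hspe1 was at 67.0, 70.4 and 69.8 FPKM at 8 weeks and at 55.2, 61.6 and 60.8 FPKM at 10 months. Hspd1 was at 96.0, 91.7 and 96.3 FPKM and then 85.2, 89.2 and 87.9 FPKM. In both, all 10-month libraries were under all 8-week libraries, and neither was called (limma adjusted p = 0.152 and 0.289). None of the 3 elements was found in the promoters of the 15 called genes that have a promoter sequence. Of the tested genes, 0.545% hold the heat shock element, 0.156% the ER stress element and 0.418% the glucocorticoid site. With shares this low, 15 genes are too few to show a lack of them.

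**Figure D5:**
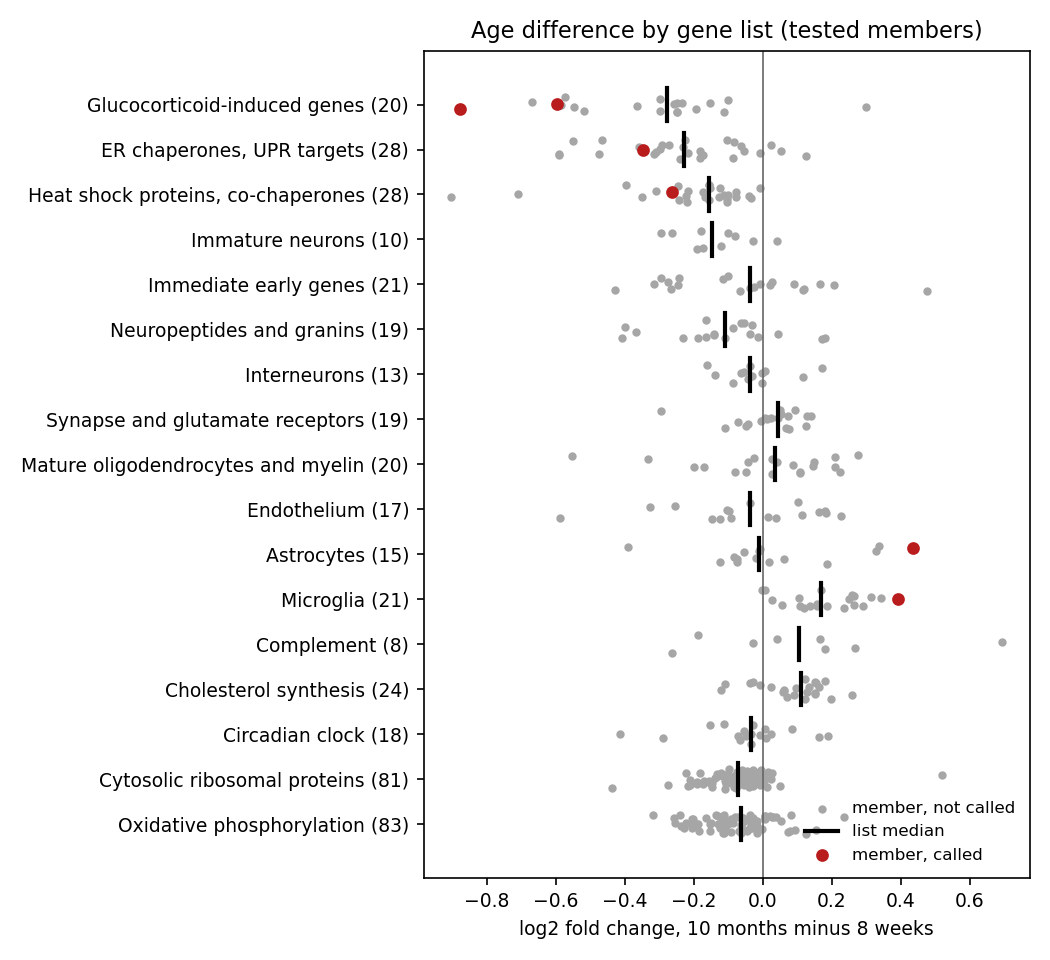
Log2 fold change (10 months minus 8 weeks, horizontal axis) of each tested member of 17 gene lists, with the number of tested members in brackets, called members in red and a bar at the list median. The median lies at -0.28 for glucocorticoid-induced genes, -0.23 for ER chaperones, -0.16 for heat shock proteins and 0.17 for microglia.

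Of 15 tested astrocyte markers and 21 tested microglia markers, 1 each was called higher, against 0.0930% of all genes tested. Gfap, the filament protein of astrocytes, was at 100.2, 97.5 and 103 FPKM at 8 weeks and at 133, 149 and 127 FPKM at 10 months. It rose 1.36-fold (log2 fold change 0.44, SE 0.06, limma adjusted p = 0.0349). S100b, a calcium-binding protein of astrocytes, was at 37.6, 41.2 and 36.3 FPKM and then 49.4, 47.4 and 48.3 FPKM (log2 fold change 0.33, limma adjusted p = 0.0599). Astrocyte markers were divided, since the median of the 15 was -0.01 (-0.03 to 0.00 without single libraries) and Gjb6, the gap junction protein connexin 30, was at 29.9, 33.5 and 27.0 FPKM at 8 weeks and at 20.6, 25.4 and 22.2 FPKM at 10 months. The call of Gfap was lost without any one 8-week library and without 10-month library 1. In bulk tissue, a different number of cells of a type and a different amount of RNA per cell cannot be told apart.

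The microglia markers had higher means at 10 months in 20 of 21, with a median log2 fold change of 0.17, and in 10 of them the groups did not overlap, against 8.88% of all genes tested. Ly86, a partner of a Toll-like receptor relative on myeloid cells, was at 5.62, 5.96 and 5.52 FPKM at 8 weeks and at 7.67, 7.93 and 7.76 FPKM at 10 months. It rose 1.37-fold (log2 fold change 0.39, SE 0.05, limma adjusted p = 0.0416) and was the only member called, a call that ended without any one library. Gpr34, a lysophosphatidylserine receptor, was at 5.26, 5.58 and 4.78 FPKM and then 6.70, 6.67 and 6.74 FPKM. P2ry12, the purine receptor of resting microglia, was at 10.5, 11.8 and 10.9 FPKM and then 12.98, 13.8 and 12.8 FPKM. Cx3cr1, the fractalkine receptor, was at 10.1, 9.46 and 10.1 FPKM and then 11.5, 11.4 and 13.4 FPKM. None of the 3 was called, although in each the ages were apart. Summed over the list, microglia markers lay between 218 and 233 FPKM at 8 weeks and between 238 and 271 FPKM at 10 months. Of 8 tested markers of activated microglia, 5 had a higher and 3 a lower mean. Their median log2 fold change was 0.09, and -0.06 without 10-month library 2. Complement genes were divided too, with 5 higher and 3 lower means among 8 tested and a median of 0.10. C4b, the complement component that is known to rise in ageing mouse brain, was at 10.4, 13.7 and 9.29 FPKM in young mice and at 16.2, 20.2 and 18.8 FPKM at 10 months (log2 fold change 0.69, SE 0.13, limma adjusted p = 0.0962), and among the alternatives run it was called only without 8-week library 2. Zeb2, a transcription factor of glia and neurons, rose from 30.7, 28.6 and 29.0 FPKM to 35.5, 36.4 and 36.2 FPKM (log2 fold change 0.28, SE 0.04, limma adjusted p = 0.0425), and this call too ended without any one library.

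The clustered protocadherins, adhesion proteins that give each neuron a surface identity, gave 2 genes called higher. The share called higher of all genes tested was 0.0930%, and earlier results of these data had named Pcdhb9 and Pcdhga2. Pcdhb9 was at 5.34, 4.69 and 4.79 FPKM at 8 weeks and at 8.35, 7.52 and 7.48 FPKM at 10 months (log2 fold change 0.56, SE 0.07, limma adjusted p = 0.0267). Pcdhga2 was at 4.50, 5.23 and 4.03 FPKM and then 8.74, 7.23 and 9.18 FPKM (log2 fold change 0.75, SE 0.10, limma adjusted p = 0.0416). Both were higher in every 10-month library, and both calls held among the single-library removals only without 10-month library 2. Of the 52 tested members, 33 had a higher and 19 a lower mean, so the family was divided. Without 10-month library 3, 24 had a lower mean. In 7 members all 10-month libraries were higher and in 1 all were lower, against 8.88% and 9.41% of all genes tested. Pcdhga2 has 44.1% of its 100-base windows in other genes of the gamma cluster, whose members share their last exons, and its value is uncertain. For Pcdhb9 the share was 1.15%. LOC118567631, which has no position in the annotation used, was at 4.43, 3.95 and 4.13 FPKM and then 6.56, 5.89 and 7.03 FPKM (log2 fold change 0.53, limma adjusted p = 0.0425), with a call that also held among the single-library removals only without 10-month library 2.

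Dio2, the enzyme of astrocytes that turns thyroxine into active thyroid hormone, was lower at 10 months. It was at 19.2, 16.6 and 16.7 FPKM in the 8-week libraries and at 11.1, 10.8 and 11.5 FPKM in the 10-month ones. This fall of 36.3% (log2 fold change -0.60, SE 0.06, limma adjusted p = 0.0107) was called in 10 of 14 alternatives and ended without 10-month library 1. Of the 10 genes listed for thyroid hormone action, Dio2 alone was called, and 6 had a lower mean. The share called lower of all genes tested was 0.0775%. Slco1c1, the thyroxine transporter, was at 16.2, 15.1 and 20.7 FPKM and then 14.0, 14.2 and 13.9 FPKM (log2 fold change -0.28, limma adjusted p = 0.317), with 8-week library 3 the highest.

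The lists of immature neurons, neuropeptides and granins, immediate early genes and endothelium gave no call in limma. Of 10 tested genes of immature neurons, 9 had a lower mean at 10 months, with a median log2 fold change of -0.15, which was -0.08 with 8 lower means without 8-week library 2. Tubb2b, a tubulin of growing neurons, was at 78.4, 75.4 and 79.9 FPKM at 8 weeks and at 66.8, 68.9 and 68.5 FPKM at 10 months (limma adjusted p = 0.106). Sox11, a factor of newborn neurons, was at 3.25, 3.08 and 3.20 FPKM and then 2.43, 2.50 and 2.52 FPKM (limma adjusted p = 0.196). Of 19 neuropeptide and granin genes, 16 had a lower mean, 7 of them without overlap, against 9.41% of all genes tested. Pcsk1, which cuts prohormones, was at 9.09, 10.8 and 9.33 FPKM and then 6.88, 6.61 and 7.76 FPKM (limma adjusted p = 0.111), and Bdnf, the growth factor of synapses, was at 13.9, 13.7 and 12.96 FPKM and then 11.5, 12.4 and 12.01 FPKM (limma adjusted p = 0.263). Immediate early genes were divided, 13 lower and 8 higher, and without 8-week library 1 the number lower was 10. Homer1, a scaffold of glutamate receptors, was at 40.8, 40.4 and 41.5 FPKM in young mice and at 31.4, 35.6 and 32.5 FPKM at 10 months, whereas Btg2, an antiproliferative gene, was at 10.3, 9.82 and 8.33 FPKM and then 14.1, 14.2 and 12.3 FPKM. Their log2 fold changes were -0.29 and 0.48 (limma adjusted p = 0.0889 and 0.0896). Slc2a1, the glucose transporter of the blood-brain barrier, was at 41.6, 38.4 and 38.7 FPKM and then 29.9, 33.0 and 31.3 FPKM (limma adjusted p = 0.0599), while the endothelial list as a whole had a median of -0.04, which lay between -0.15 and 0.06 without single libraries.

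The lists of cholesterol synthesis and of the clock gave no call either. Of 24 genes of cholesterol synthesis and uptake, 19 had a higher mean at 10 months, with a median log2 fold change of 0.11 (0.07 without 8-week library 3), and 8 did not overlap, against 8.88% of all genes tested. Insig1, the sterol sensor, was at 20.9, 22.9 and 21.7 FPKM at 8 weeks and at 27.5, 24.8 and 26.7 FPKM at 10 months (log2 fold change 0.26, limma adjusted p = 0.123). Per2, a clock repressor, was at 15.5, 12.4 and 13.2 FPKM and then 9.89, 9.81 and 10.2 FPKM (log2 fold change -0.41, limma adjusted p = 0.0962), and Arntl, its activator, had a log2 fold change of 0.19. Cytosolic ribosomal proteins and oxidative phosphorylation genes had medians of -0.07 and -0.06, with 73 of 81 and 67 of 83 members lower, but only 2 and 8 of them without overlap, against 9.41% of all genes tested. Both lists were lowest in 10-month library 1, without which the medians were -0.01 and -0.03 and 50 and 55 members were lower. Without 8-week library 2 they were -0.03 and -0.04, with 54 and 62 lower. Of the 43 lists with a tested member, 33 had none called, and 12 of the 22 called genes stood in no list.

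Just outside the threshold were Bcl6, Meis2 and Neto1. Bcl6, a transcriptional repressor, was at 18.9, 18.5 and 18.3 FPKM at 8 weeks and at 15.1, 14.5 and 15.4 FPKM at 10 months (log2 fold change -0.29, limma adjusted p = 0.0501). Meis2, a homeobox factor, was at 19.7, 21.1 and 21.2 FPKM and then 16.4, 14.9 and 16.5 FPKM. Neto1, an auxiliary subunit of kainate receptors, was at 29.5, 30.1 and 28.8 FPKM and then 35.99, 36.4 and 34.2 FPKM. Of 97 genes with an absolute log2 fold change of 0.5 or more, 17 were called, and the smallest change called was that of Fkbp4.

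Over all tested genes, libraries of different ages were only slightly farther apart than libraries of the same age. The mean Euclidean distance on log2(FPKM + 1) was 22.1 between ages and 20.3 within them (21.5 at 8 weeks and 19.0 at 10 months). The difference of 1.85 had p = 0.1 in an exact one-sided permutation test over 20 assignments of the libraries, which is the smallest p that 3 against 3 libraries can give. By the same exact test, the difference was 0.643 (p = 0.4) without 10-month library 1 and 0.929 (p = 0.3) without 10-month library 3. The first principal component held 32.5% of the variance and set 8-week library 3 apart, with Ttr as its leading gene.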

How the data were processed

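RNA of the hippocampus was sequenced in 9 libraries, 3 per group, and the 6 vehicle libraries were used here. The authors deposited FPKM values with 1 column per library. The study's methods name HISAT2, Bowtie2 and RESM on a BGISEQ-500 sequencer, the submitters' processing notes list GRCm38, TopHat2 and Cufflinks. Which tool made the values is not given in the sources used. Columns were matched to samples by name. Genes that reached 1 FPKM in 3 or more of the 6 libraries entered limma 3.58.1 in R 4.3.3, on log2(FPKM + 1), with a trend of variance on mean in its empirical Bayes step. The threshold was 0.05 on the p adjusted after Benjamini and Hochberg. No count model was used, since the values are not counts. A pseudocount understates the change of low genes.

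The genes named were the 12 with the largest change in each direction among called genes without overlap, called list members, the members of each described list with the smallest p, markers, and genes that earlier results had named. Others named (Dusp1, Btg2, Canx, Wdfy1, Cyfip2 and further list members, and genes just outside the threshold) were chosen after their values were seen. The members and the gene lists were chosen with earlier results of these data known. Positions and promoters came from RefSeq (GRCm38.p6), which may hold several promoters for 1 gene. Shared sequence was counted over 100-base windows of GENCODE M21 transcripts. The alternatives were another pseudocount (0.1 FPKM), a filter on the mean (5 FPKM or more) or none, median-of-ratios and upper-quartile scaling, no trend, all 9 libraries, a replicate block and leaving out each library. The quercetin libraries entered only the fit of 9. FPKM holds no absolute depth, so the spread between 3 libraries is the only measure of precision.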

Additional observations from a re-analysis of the deposited data

How the results depend on the processing

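The counts of called genes depended on the processing more than the directions did. With a pseudocount of 0.1 FPKM the counts were 12 higher and 10 lower, and with median-of-ratios scaling 14 and 10. With no filter on low values they were 2 higher and 3 lower, and without the mean-variance trend 2 higher and 4 lower. A fit of all 9 libraries called 11 higher and 19 lower. Leaving out single libraries gave 2 to 11 higher and 5 to 16 lower genes, the most without 10-month library 2 and the fewest higher without 8-week library 1. The distance between the ages lay between 0.643 and 2.71 without single libraries. The cause of these shifts was not tested. Of the values of named genes under these alternatives, 1923 kept their side of the threshold, 125 fell short of it, 31 passed it and 11 changed sign. The last were of 7 uncalled genes. Over the single-library removals the log2 fold change of Ttr lay between -3.76 and 0.95, the log2 fold change of Rgs9 between -0.10 and 0.000987, the log2 fold change of Mcm6 between -0.084 and 0.028, the log2 fold change of Edem1 between -0.0014 and 0.083, the log2 fold change of Txndc5 between -0.012 and 0.049, the log2 fold change of Hsf2 between -0.022 and 0.0088 and the log2 fold change of Paip1 between -0.028 and 0.025. With upper-quartile scaling Hsf2 was at 0.0037 and Paip1 at 0.0076.

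Nothing in the sources used here says that the replicate numbers in the labels pair the libraries. Libraries of the same number deviated together with correlations of 0.04, 0.05 and -0.04. The 8-week libraries 1 and 2 correlated best with their own number, and 8-week library 3 did not. Values this small over 3 numbers cannot decide whether the libraries were paired. With the number as a replicate block, limma called 0 genes higher and 3 lower (Tmem181a, Zkscan3 and Nnt), with 1757 genes at an unadjusted p under 0.05. FPKM carries no read counts, so the precision of low genes such as Ccl28 cannot be set by depth.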
